A study of Rattus norvegicus with 16 samples.

Results

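Small RNA reads from rat germ cells (GCs) were examined on 1 kind of repeat, the long terminal repeat (LTR) retrotransposon names that start with RMER, RLTR, BGLII, MYSERV, MERVL or MT2. Of the 997 repeat names in the files, 165 started in 1 of these ways, among them 89 RLTR, 60 RMER, 6 MT2, 5 BGLII, 4 MYSERV and 1 MERVL name, while the starts ETn, MMERVK and MMETn had 0 names. The names were chosen by spelling alone, without use of a measured value, but with earlier results of these data known. The class of each element was not checked beyond its spelling, so single names may not be LTR elements. The GCs came from the testes of male Sprague-Dawley rats that carried a GC-specific eGFP transgene, and were sorted for eGFP. From weaning until 19 weeks of age the rats ate a high fat diet (HFD, 40% of calories from fat by the sample labels) or a control diet (CD, 10%), and 8 rats, 4 per diet, each gave a small RNA library. The paper states a higher fat content for the HFD than the labels do. The labelled cell type was not checked against marker genes here, because the gene identifiers of the matching mRNA files could not be paired with symbols.

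LTR retrotransposons copy themselves through an RNA that is reverse transcribed and inserted elsewhere in the genome. A full copy has an internal part, which can encode the proteins for this step, between a pair of LTRs that hold the promoter and the end signal. Recombination between the LTRs often leaves a single LTR behind, and names ending in "-int" mark internal parts. MT2 names are LTRs of MERVL-type elements. In the testis the most abundant small RNAs are piRNAs, which are bound by PIWI proteins and guide the silencing of transposons by base pairing. Many piRNAs of meiotic GCs come from a limited number of genomic clusters that also hold transposon remains, so a small RNA that lies on a repeat copy need not come from an active element.

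The 165 names covered 304349 annotated copies and 96.7 Mb of rn5, which was 9.75% of the 991.8 Mb annotated as repeats. The median name had 1028 copies, and the median over names of the mean copy length was 326 bases. Of the copies, 50.1% were annotated on the plus strand. Chromosome X held 5.01% of their bases, against 7.04% of all repeat bases. By spelling, 17 of the names were internal parts, and the other 148 are called LTR names.

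Each library held between 2363595 and 3269169 repeat counts, and 3 counts in the smallest amounted to 0.000127% of it. Counts on the 165 names came to 15.05%, 14.92%, 15.06% and 15.17% of all repeat counts in the 4 HFD libraries. The 4 CD libraries gave 15.08%, 14.96%, 15.02% and 14.96%. The diets overlapped, with HFD replicate 2 the lowest and HFD replicate 4 the highest of the 8. The mean was 15.05% ± 0.0996 (SD, n = 4) on the HFD and 15.01% ± 0.0596 (SD, n = 4) on the CD. The 95% Wilson interval of a single library was narrower than the range over the rats, for example 15.01% to 15.10% in HFD replicate 1, and covers counting error only.

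Per kb of annotated copies, the 165 names carried 1.55 counts per 1000000 repeat counts (CPM per kb, mean of 8 libraries), against 0.949 for all other repeat names, a ratio of 1.64. ORR1, MT and MLT names, which belong to another group of LTR retrotransposons, carried 2.03 CPM per kb and lay above the RMER and RLTR group in all 8 libraries. B1, B2, B3, B4 and ID names, which are short interspersed elements, carried 0.842, and L1 and Lx names, which are long interspersed elements, 0.313. The ranges of these 4 groups over the 8 libraries did not overlap. The paper describes the counted reads as uniquely aligned. Whether the groups differ in how many of their reads could be placed was not measured, so these are levels of counted reads only.

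The name starts differed from each other more than the libraries did. BGLII names carried 5.15 CPM per kb, MERVL 2.08, RMER 2.03, MYSERV 1.11, RLTR 0.923 and MT2 0.919. MERVL and RMER overlapped over the libraries, as did RLTR and MT2, and the other neighbours in this order did not. RMER names held 9.92% of all repeat counts on 4.92% of the repeat length, whereas RLTR names held 3.07% on 3.36%. Internal parts together carried 1.41 CPM per kb and LTR names 1.58.

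**Figure D1:**
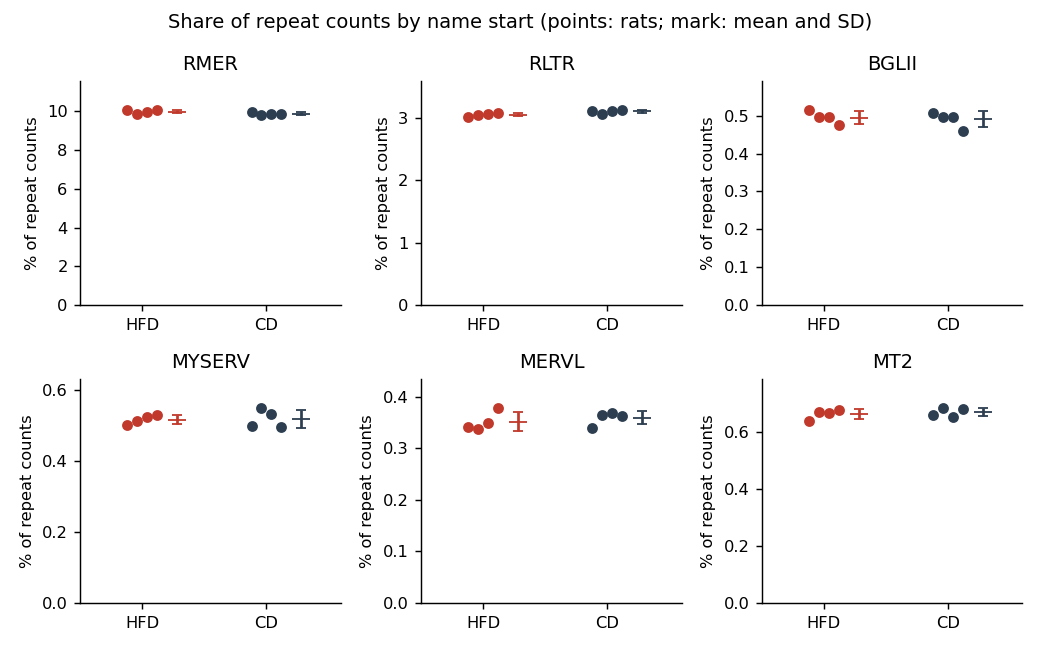
Percent of repeat counts on each of the 6 name starts (vertical axes from 0, scaled separately), with 1 point per rat and the mean with its SD (n = 4) to the right of each diet. RLTR names lay between 3.01% and 3.07% on the HFD and between 3.06% and 3.12% on the CD, and in every panel the diets overlap.

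By name start, RMER shares were 10.04%, 9.86%, 9.96% and 10.04% on the HFD and 9.97%, 9.80%, 9.86% and 9.84% on the CD. RLTR shares were 3.01%, 3.05%, 3.06% and 3.07% on the HFD and 3.11%, 3.06%, 3.11% and 3.12% on the CD. For RLTR only CD replicate 2 lay within the HFD range. For RMER, HFD replicate 2 lay below 2 of the CD libraries and HFD replicate 3 below CD replicate 1. BGLII shares ran from 0.461% to 0.514%, MYSERV from 0.496% to 0.550%, MERVL from 0.338% to 0.378% and MT2 from 0.638% to 0.685% over the 8 libraries. No test was made on these sums.

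Few names held most of the counts. RMER10A alone took 22.7% of the 3332183 counts, the first 3 names 35.1%, the first 10 60.0% and the first 20 80.3%. Of the 165 names, 157 had any count, 150 had a mean of at least 1 per library and entered the test, 113 had at least 10, 75 at least 100 and 44 at least 1000. The 8 names with 0 counts in all libraries were RLTR40_Rn, RLTR43_Rat, RMER16_Mm, RLTR12F, RMER17B, RLTR10F, RLTR7_Rn and RLTR46. They were short in total, with 305 copies and 84627 bases between them.

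RMER10A is an LTR name with 4252 copies. It counted 35061, 33306, 34399 and 35043 CPM in the HFD libraries and 34515, 32626, 33826 and 34436 CPM in the CD libraries. The diets overlapped, with CD replicate 2 the lowest and HFD replicate 1 the highest. RLTR24, an LTR name with 1445 copies, counted between 9561 and 10669 CPM, with both ends in CD libraries. RMER15, with 17593 copies the most numerous of the 165 names, counted between 8359 and 9165 CPM. RMER6C ran from 6341 to 7111 CPM, RLTR19-int, an internal part, from 5433 to 5978 CPM, RMER4A from 5307 to 5994 CPM and RMER5 from 4619 to 5035 CPM. The range of each of these names over the 4 HFD libraries overlapped that over the 4 CD libraries.

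Per kb, RMER10A was also first, with 28.3 ± 0.705 CPM per kb (SD, n = 8). RLTR24 followed with 22.8, RLTR26 with 20.6, RLTR19C with 19.2, RLTR13D with 18.0 and RMER2 with 13.1. After these LTR names came BGLII_Mur with 8.49, RMER21B with 7.54, RMER4A with 6.81 and BGLII_B with 6.77. RLTR26 was above RLTR19C in 7 of 8 libraries, RLTR19C above RLTR13D in 5 of 8 and RMER4A above BGLII_B in 4 of 8, so the order within these pairs was not settled by the data. RMER21B was above RMER4A in 8 of 8 although their ranges overlapped. Over the 113 names that averaged 10 counts or more per library, the median was 0.311 CPM per kb, 91.3 times below RMER10A, and the lowest was 0.00473. Some of the densest names were small: RLTR13D had 33 copies and RLTR26 218.

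Number of copies and number of reads went together only in part. Across the 113 names, counts and annotated length had a Spearman correlation of 0.40, which is a description across names that share the same libraries. RLTR32_Rn, the second most numerous name with 15093 copies of 97.3 bases on average, received 383 counts over all libraries, or 0.0114 CPM per kb. MT2B had 12922 copies and 0.595 CPM per kb, whereas MT2_Rat2 with 1102 copies had 4.35. The order of the names was nearly the same on both diets, with a Spearman correlation of 0.998 between the HFD and CD means.

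**Figure D2:**
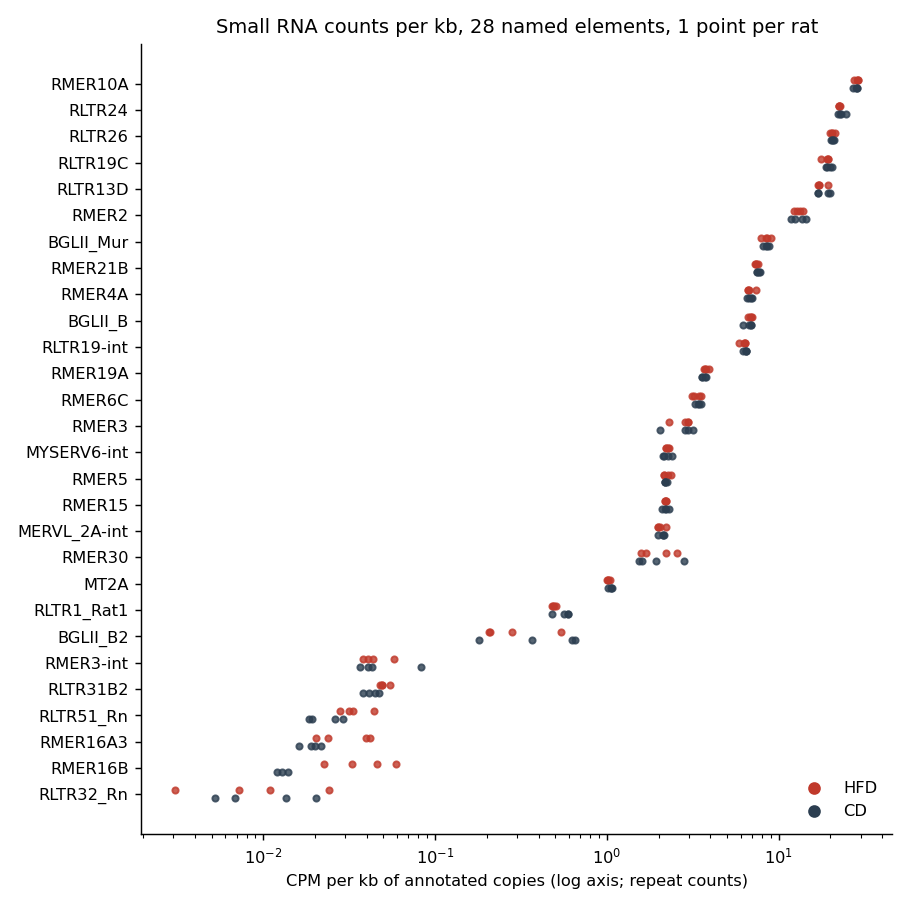
Counts per 1000000 repeat counts per kb of annotated copies (log axis) for the 28 names chosen by rule, with 1 point per rat, HFD above and CD below each line. Levels run from 28.3 for RMER10A to 0.0114 for RLTR32_Rn. For RMER16B the library of CD replicate 4, at 0 counts, cannot be drawn on a log axis.

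Closely related names could differ by large factors. Within the RLTR19 family, RLTR19C carried 19.2 CPM per kb, while RLTR19B carried 0.0644, RLTR19A 0.0483 and RLTR19 0.0360. RLTR19C was 299 times above RLTR19B, 398 times above RLTR19A and 535 times above RLTR19, and it was the higher in 8 of 8 libraries each time. The low members were thinly counted, with 72 to 273 counts over all libraries, so that the factor against RLTR19 ran from 442 to 724 between libraries. The internal part RLTR19-int, at 6.31 CPM per kb, lay between RLTR19C and the other LTR names.

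The RLTR26 family was similar. RLTR26 carried 20.6 CPM per kb, RLTR26B_Rn 0.816 and RLTR26_Rattus 0.0585, and RLTR26_Rn had 2 counts in all libraries together. RLTR26 was thus 25.2 times above RLTR26B_Rn and 352 times above RLTR26_Rattus, again in 8 of 8 libraries. Density did not follow copy number, since RLTR26 had 218 copies, RLTR26B_Rn 1337, RLTR26_Rattus 1112 and RLTR26_Rn 196.

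RMER names showed the same kind of spread. RMER2 was 8.19 times above RMER2_Rn and 527 times above RMER2B_Rn (300 to 1316 times by library, with 141 counts on RMER2B_Rn in all), although RMER2 and RMER2B_Rn have nearly equal numbers of copies (831 and 834). RMER10A was 12.8 times above RMER10B, RMER21B 3.85 times above RMER21A, RMER4A 2.94 times above RMER4B and RMER20B 2.89 times above RMER20A. In each of these pairs the first name was higher in 8 of 8 libraries. The paper describes the counted reads as uniquely aligned, while the file headers give only a minimum mapping quality, so the division of reads between near-identical copies of related names is uncertain.

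Internal parts and LTRs of the same name did not follow a single direction. Of 9 pairs, the LTR was denser in all 8 libraries in 3 and the internal part in 5. The pairs were matched by spelling, and other LTR names of a family could reverse the order. RLTR19-int (6.31 CPM per kb) lay above RLTR19 but below RLTR19C (19.2), and RMER17C-int (0.0337) above RMER17C but below RMER17C2 (0.146). RLTR14-int (2.31) lay below RLTR14 but above RLTR14_RN (0.745). RMER3 carried 2.77 CPM per kb and RMER3-int 0.0479, a ratio of 57.7, and the LTRs of RLTR18 and RLTR14 were 8.61 and 2.79 times above their internal parts. In the other direction, RMER17A_Rn-I-int carried 4.17 CPM per kb against 0.527 for its LTR, and RLTR42-int 0.496 against 0.0376. RMER15-int and RMER15 were close, at 2.30 and 2.20 CPM per kb, and the sign for RMER16 varied between libraries. MERVL_2A-int, the internal part of a MERVL-type element, a family known for its transcription in early mouse embryos, carried 2.08 ± 0.0889 CPM per kb (SD, n = 8), and MT2A, the MT2 name with the most counts, 1.03 ± 0.0261.

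**Figure D3:**
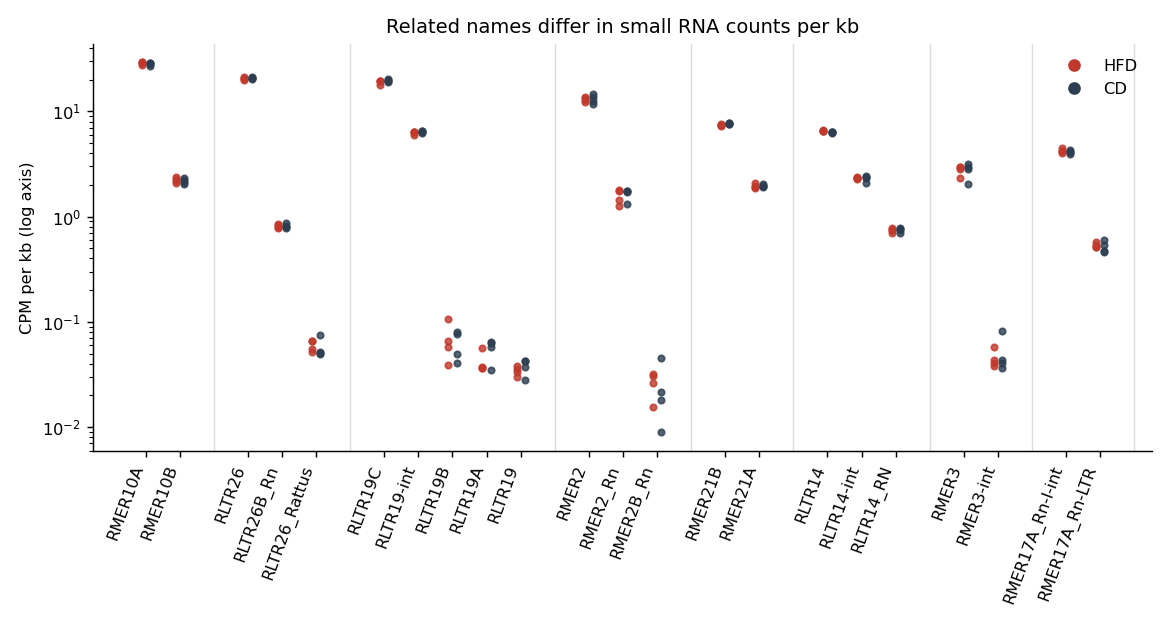
Counts per 1000000 repeat counts per kb (log axis) for related names, grouped between grey lines, with 1 point per rat. RLTR19C lies 299 to 535 times above RLTR19B, RLTR19A and RLTR19, and RMER3 57.7 times above RMER3-int, while the 8 rats lie close together for the densely counted names.

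The question the design poses is whether the diet changed these small RNAs. With edgeR's quasi-likelihood test fitted on all 755 repeat names with a mean count of at least 1, 0 of the 150 tested names passed a Benjamini-Hochberg adjusted p of 0.05, and the lowest adjusted p was 0.992. Over all names tested, 1 was called (0.132%), and it was none of the 150. At an unadjusted p under 0.05 there were 4 of the 150 (2.67%), all higher on the HFD, against 27 of 755 (3.58%), of which 16 (2.12%) were higher and 11 (1.46%) lower. Of these 4, RMER16B passed the filter on low counts only through the HFD libraries. DESeq2, with or without shrunken fold changes, called 0 of the 150, and 0 of them had an unadjusted p under 0.05. Over all 755 names, 12 had an unadjusted p under 0.05 in either DESeq2 setting. Of the 755, 0 were called with shrinkage and 1 without. The median log2 fold change (HFD over CD) was 0.0052 for the 150 names and 0.0053 for all 755, with 79 of the 150 and 400 of the 755 above 0.

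For well-counted names the interval of the difference was narrow. Among the 44 names with a mean count of at least 1000, log2 fold changes ran from -0.07 to 0.07, and the median width of the 95% interval was 0.20. In 40 of the 44 the interval lay within 0.25 of 0 on the log2 scale. The exceptions were RMER3, RLTR22_Mur, RMER30 and RMER2_Rn, and the widest bounds, -0.41 and 0.49, belonged to RMER30. For RMER10A the log2 fold change was 0.04 (SE 0.03), with an interval from -0.03 to 0.10. Differences smaller than these intervals were not detectable with 4 rats per diet.

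**Figure D4:**
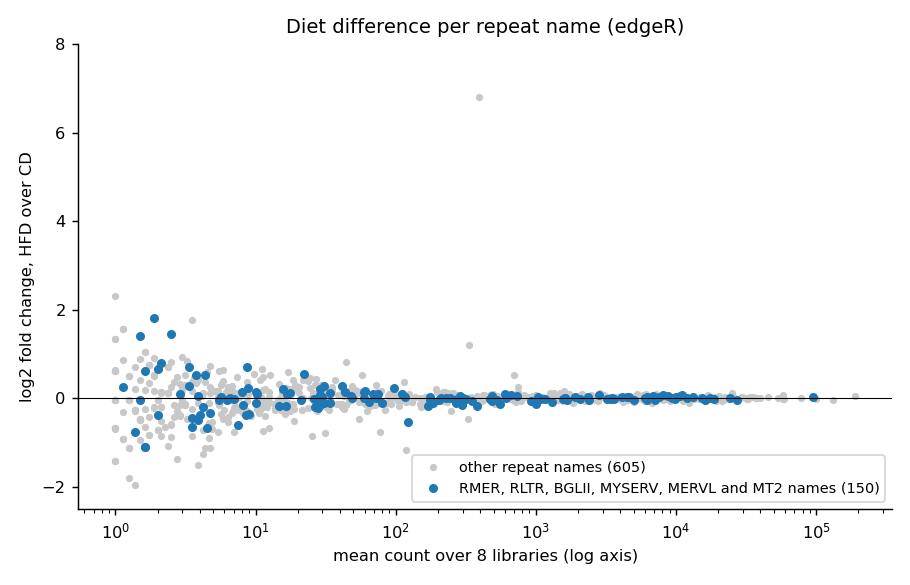
Log2 fold change, HFD over CD, against the mean count over 8 libraries (log axis) for the 755 repeat names tested, with the 150 RMER, RLTR, BGLII, MYSERV, MERVL and MT2 names in blue. Blue points above a mean count of 1000 lie between -0.07 and 0.07, and the spread widens towards low counts for both sets.

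Of the 5 names with the smallest p-values, 4 had under 1000 counts in all 8 libraries together. RMER16B had 4, 3, 3 and 2 counts in the HFD libraries and 1, 1, 1 and 0 in the CD libraries, which do not overlap. With 12 against 3 counts it passed the filter on low counts only through the HFD libraries, so no ratio is given (edgeR adjusted p = 0.992). RMER16A3, with 70 counts in all, had 4.93, 2.96, 5.20 and 2.52 CPM on the HFD and 2.69, 2.33, 2.49 and 1.99 CPM on the CD, which overlap in 1 HFD library. RLTR51_Rn, with 178 counts, ran from 7.87 to 12.3 CPM on the HFD and from 5.17 to 8.19 CPM on the CD, and the ranges overlapped.

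RLTR31B2, with 778 counts, had 41.1, 36.4, 37.3 and 37.1 CPM on the HFD and 33.8, 28.7, 31.3 and 35.8 CPM on the CD. Every HFD library was higher than every CD library. The log2 fold change was 0.24 (SE 0.11) and the edgeR adjusted p 0.992. RLTR1_Rat1, with 3030 counts, ran from 124 to 132 CPM on the HFD and from 124 to 156 CPM on the CD. Its log2 fold change was -0.18 (SE 0.09), and CD replicate 3, at 124 CPM, lay with the HFD libraries.

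Diets that did not overlap in CPM were found for 4 of the 150 names (2.67%), against 16 of all 755 (2.12%). HFD was above CD in 3 names, RLTR14, RLTR31B2 and RMER16B (1.32% over all names), and below in 1, MYSERV-int (0.795% over all names). As RMER16B passed the filter only through the HFD libraries, its place in this count was favoured by the filter. RLTR14 counted 4024, 3876, 3942 and 3948 CPM on the HFD and 3859, 3787, 3842 and 3797 CPM on the CD, a log2 fold change of 0.06 (SE 0.03). MYSERV-int, an internal part, counted 55.1, 58.8, 52.9 and 62.0 CPM on the HFD and 62.3, 66.0, 69.8 and 62.0 CPM on the CD, and its lowest CD and highest HFD library were nearly equal. Neither passed the adjusted threshold.

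Most names varied little from rat to rat. For the 75 names averaging 100 counts or more, the median coefficient of variation (CV) of the CPM over the 8 libraries was 5.10%, against 5.56% over the 349 repeat names at that depth, and in 62 of the 75 it was under 10%. The exceptions were spread over both diets. BGLII_B2 had the highest CV, 51.5%, with 23.4, 23.3, 31.5 and 61.1 CPM on the HFD and 73.4, 41.3, 70.8 and 20.3 CPM on the CD, so that high and low rats occurred in each group. RMER30 (CV 24.6%) counted 1111, 735, 684 and 961 CPM on the HFD and 1218, 834, 664 and 691 CPM on the CD. For RMER30 replicate 1 was the highest rat on either diet.

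RMER3-int (CV 32.5%) counted 132, 93.1, 98.8 and 86.6 CPM on the HFD and 92.7, 83.0, 97.9 and 189 CPM on the CD, with CD replicate 4 standing apart and HFD replicate 1 next. In its LTR, RMER3 (CV 13.8%), the same 2 rats were the lowest. RMER3 counted 5206, 6405, 6669 and 6691 CPM on the HFD and 6384, 7106, 6704 and 4608 CPM on the CD. RLTR13D fell into separate levels: HFD replicate 1, CD replicate 1 and CD replicate 4 had 68.7, 68.8 and 70.4 CPM, while the other 5 rats lay between 60.0 and 60.5. This grouping of rats was seen after the values were known, crosses the diets and was not tested.

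The authors also counted reads on 58165 annotated piRNA entries, which allowed the source of some counts to be followed to single places. A piRNA entry was placed on a copy where at least 50% of its length lay on it. By this rule 1613 entries had a place on a copy of the 165 names, and 503 of them (31.2%) had any count, against 18.3% of all entries. Of the 365 that were tested, 0 passed an adjusted p of 0.05 in edgeR, as did 0 of all 7818 (0%), and 13 (3.56%) had an unadjusted p under 0.05, against 234 (2.99%). DESeq2 also called 0 of the 365.

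Of the 50830 entries with a single annotated place, 1239 lay on a copy of these names. Of these 1239, 300 (24.2%) had counts, against 16.4% of all single-place entries. Their 208531 counts correspond to 6.26% of the counts on the 165 names, against 4.51% for single-place entries on any repeat copy and all repeat counts. Because every piRNA entry is annotated on the plus strand and the authors counted the reverse strand, these reads lie on the minus strand of the genome. Entries on copies of the plus strand held 75.9% of the counts, so these reads were antisense to the copy, and entries on copies of the minus strand held 24.1%. The split rested on few entries, since the plus-strand share was 66.0% without the entry with the most counts and 52.0% without the first 5. Of the 300 entries with counts, 148 lay on plus-strand copies and 152 on minus-strand copies. Reads on the plus strand of the genome were not counted on piRNA entries, so this split covers 1 read strand only.

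The counts were concentrated on few entries, with 49.9% on 5 of the 1239. The first, rat_piRNA_178108, lay at chr1:136165874-136165902 (rn5) within the RMER3 copy at chr1:136165639-136166056, on the plus strand, and had 60727 counts. The next were rat_piRNA_151845 at chr20:15899032-15899059 and rat_piRNA_181129 at chr1:15760756-15760780, both on RMER15 copies, with 15899 and 10104 counts. After them came rat_piRNA_178110 at chr1:263368172-263368199 on RMER5, with 8780 counts, and rat_piRNA_179788 at chr17:13857089-13857114 on RMER21B, with 8549 counts. All 5 copies were annotated on the plus strand. None of the 5 entries passed the test between diets.

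A single copy thus held a large part of RMER3. The 60727 counts of rat_piRNA_178108 equal 43.6% of the 139199 counts on all 5455 RMER3 copies, and by library this ran from 34.7% to 47.5%. The lowest values were 34.7% in HFD replicate 1, 37.7% in CD replicate 1 and 38.5% in CD replicate 4, while the other 5 rats lay between 45.2% and 47.5%. These are the same 3 rats in which RLTR13D was high. Taking the entry's counts away, on the assumption that each was also counted on RMER3, left a CV of 9.58% in place of 13.8%, and the CV of the entry itself was 22.9%. The entry's piRNA counts, per 1000000 piRNA counts, were 7289 ± 1731 (SD, n = 4) on the HFD and 7001 ± 1868 (SD, n = 4) on the CD and overlapped.

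**Figure D5:**
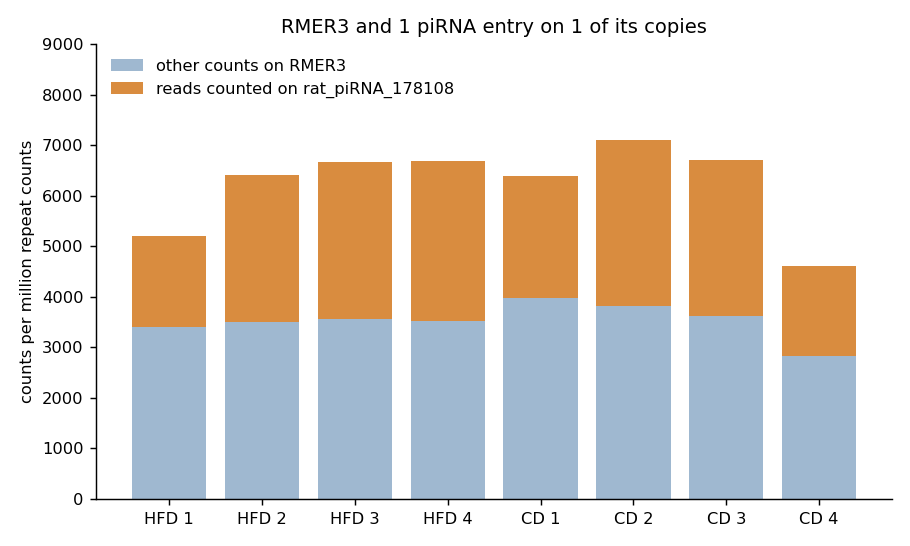
Counts per 1000000 repeat counts on RMER3 in each of the 8 libraries (bars from 0), split into the reads counted on rat_piRNA_178108 and all others. The entry makes up 34.7% to 47.5% of each bar, and HFD replicate 1 and CD replicate 4 have the lowest bars.

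By this measure RMER3 was second among the 165 names. The counts of single-place entries equalled 55.2% of the 232 counts on RMER6BA, 39.0% of the 2816 on RLTR18, 37.3% of the 32791 on RLTR14-int and 27.1% of the 472 on RMER6B. Among the other names with many counts the share was 24.3% on RMER21B, 19.1% on RMER15, 14.4% on RMER5, 12.6% on RLTR14 and 11.6% on RMER19A. For the 3 densest names the share was small, with 1.02% for RMER10A, 0.0887% for RLTR24 and 0.0249% for RLTR26. MERVL_2A-int was at 0.0443% and RLTR13D at 0%. Repeat counts cover either strand and piRNA entry counts the reverse strand only, so reads of the other strand on single-place entries are missing from these shares. Where the remaining counts on RMER10A, RLTR24 and RLTR26 lay cannot be read from counts summed per name.

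The position of the copies relative to the places with the most piRNA entry counts was described with windows of 50 kb. These counts cover only reads on the minus strand of the genome. Sources of plus-strand piRNAs were therefore not seen by this ranking. The 100 windows with the most counts on single-place piRNA entries, leaving out entries on the 165 names, held 98.9% of those counts. They contained 0.268% of the bases of the 165 names, against 0.157% of all repeat bases, in 768 copies of 120 names. The window with the most counts, chr1:136150001-136200000, held an RMER3 and an RLTR14 copy, and it is the window of rat_piRNA_178108. RMER21B had the highest share among the named members, with 40 copies and 3.5% of its bases in such windows, followed by RMER16A3 with 1.05% and BGLII_B with 0.892%.

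Across the 113 names the share of bases in these windows and the CPM per kb had a Spearman correlation of 0.31, against 0.37 over the 523 repeat names with a mean count of at least 10. Both are descriptions across names of the same libraries. The densest names lay on both sides of the 0.268% of the whole group. RLTR26 (0.764%), RLTR19C (0.520%) and RMER10A (0.414%) had more of their bases in the windows, and RLTR24 (0.231%), RMER2 (0.168%) and RLTR13D (0%) less. RLTR26 and RLTR24 had 2 copies each there and RLTR19C 1.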

How the data were processed

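GCs were sorted from 4 rats per diet, and 16 libraries (8 mRNA, 8 small RNA) were made. The small RNA libraries alone are used here. The authors deposited raw read counts per repeat name and per piRNA entry. Per the paper, reads were trimmed with Trimmomatic and aligned to rn5 with Butter, and unique alignments were counted over repBase repeats and piRNAQuest piRNAs. Per the file headers, featureCounts 1.4.6 counted at a mapping quality of at least 1, on either strand for repeats and on the reverse strand for piRNAs. Reads from near-identical copies can be assigned to a wrong name.

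Diet came from the sample labels. The column header and the file name of CD replicate 4 give different library numbers, and the sample recorded for the file was used. The gene identifiers of the mRNA files matched no symbol in the reference tables, so the planned lists of piRNA pathway genes and cell type markers were not analysed here.

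Names were those starting with RMER, RLTR, BGLII, MYSERV, MERVL, ETn, MMERVK, MMETn or MT2. The members and lists were chosen with earlier results of these data known. CPM is counts per 1000000 repeat counts, divided by the annotated length in kb where given per kb. Names with a mean count of at least 1 were tested with edgeR 4.0.16 under R 4.3.3 (TMM, quasi-likelihood, diet only, Benjamini-Hochberg over all 755 repeat names or 7818 piRNA entries). DESeq2 1.42.0, other size factors, other filters, a robust fit, a replicate block and leaving out each library were alternatives. The standard error is the log2 fold change divided by the square root of F. The 28 named members were the 10 with the most counts, the 10 with the most counts per kb, the 5 with the smallest p, the first by counts of each name start, the 3 with the highest CV and the 2 with the most copies. Other names in the text were chosen after their values were seen. Overlaps were computed with bedtools 2.31.1. The fits were tested on simulated data.

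Depth was 2363595 to 3269169 repeat counts and 891575 to 1240080 piRNA counts per library. Any pair of libraries differed over the 165 names by a chi-square of at least 2.68 per degree of freedom, so no library was a duplicate. Replicates are separate rats. Replicate numbers are shared between diets, but same-numbered libraries did not deviate together (mean correlation 0.04, from -0.05 to 0.11, for repeats), so the numbers were not taken as pairs.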

Additional observations from a re-analysis of the deposited data

Results flagged for a closer look

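A library was marked where the gap between it and its nearest neighbour took up more of the range of its diet group than Dixon's critical value for 4 samples allows. Chance marks about 5% of groups, and of 84 groups examined 6 held such a library. HFD replicate 1 was low for RLTR19-int, at 5433 CPM against 5808 to 5841 in the other HFD rats, and for RLTR19C, the LTR name of the same family, at 1651 CPM against 1806 to 1825. It was high for RLTR13D, at 68.7 CPM against 60.0 to 60.5. CD replicate 4 was high for RMER3-int, at 189 CPM against 83.0 to 97.9, and had 0 CPM of RMER16B against 0.333 to 0.385, where the other CD libraries had 1 count each. CD replicate 1 had the lowest share of counts on internal parts, 2.17% against 2.25% to 2.27%.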

How the results depend on the processing

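The count of 0 called among the 150 RMER, RLTR, BGLII, MYSERV, MERVL and MT2 names was the same under every alternative run, including each library left out (0 to 0). Over all repeat names the 1 call became 0 with DESeq2 and shrunken fold changes, with a mean count of at least 10 and with the robust fit, and was 0 to 1 with 1 library left out. Of piRNA entries on these copies, 1 of 503 was called in place of 0 without the filter beyond 1 count. With the replicate block the same entry was called, of 365 tested (0 to 0 with 1 library left out). Calls over all piRNA entries in these settings are not given here. That entry, rat_piRNA_73925, has 21 places, 2 of them on MT2B copies, and counted 0, 3, 1 and 0 reads on the HFD and 0, 2, 38 and 27 on the CD, so the diets overlap and its level rests on CD replicates 3 and 4. Its edgeR adjusted p was 0.0112 with the block and 2.49e-10 without the filter. The block changed no other of these calls, and as same-numbered libraries did not deviate together it is no paired analysis.

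The difference in CPM per kb (HFD minus CD, 0.0045) was 0.0156 with TMM effective library sizes and 0.00046 to 0.00885 with 1 library left out, and the difference in share was 0.0044 to 0.0856 percentage points. Of the 28 named members, 15 kept the sign of their log2 fold change in every alternative and 13 did not. The 8 log2 fold changes followed through all alternatives (RMER10A, RLTR14, MYSERV-int and the 5 with the smallest p) kept their sign, with an adjusted p of at least 0.976. All but RMER10A had a small p or diets that did not overlap in these same data. A kept sign was thus favoured by the choice of names and is no support for a difference. RMER16B passed the filter on low counts only through the HFD libraries, so its sign carries no weight here. With TMM scaling, an alternative added after the data were seen, 3 of the 150 names (2%) did not overlap between diets in place of 4. Over all 755 names tested it was 17 (2.25%) in place of 16. The Spearman correlation with the piRNA windows was 0.27 to 0.40 for other window sizes and numbers, also added then. Over the 523 repeat names it was 0.29 to 0.43 in these settings, which is not like for like, as entries on other repeat names stayed in the ranking. With the 300 windows with the most counts, the 113 names had the higher value (0.40 against 0.31). The planned share without simple repeats could not be run, since no name is of that kind. Depth limits the names with few counts, whose intervals are wide.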
